A study of Saccharomyces cerevisiae with 11 samples.

Results

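The 67 genes described here encode the proteins of the mitochondrial ribosome of Saccharomyces cerevisiae, as far as their names show it. They were taken by symbol, as every gene named MRPL, MRPS, MRP or RSM followed by a digit that had a probe set annotated to that gene alone, with the brighter probe set where a gene had several. They make up 67 of the 5577 genes tested, on 68 probe sets, and only MRPL44 had more than 1. Of these genes 38 encode proteins of the large subunit and 28 are assigned to the small subunit. The remaining gene, MRP8 (YKL142W), carries the name but is not known to encode a ribosomal protein. RSM22 (YKL155C), counted with the small subunit, encodes a protein related to rRNA methyltransferases. By family name, 41 of the proteins have a relative in the bacterial ribosome and 24 are mitochondrial additions.

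Mitochondria translate a small set of mRNAs of their own, mostly for membrane subunits of the respiratory chain and the ATP synthase, on ribosomes that descend from those of bacteria. In yeast nearly all proteins of this ribosome are encoded in the nucleus, made on cytosolic ribosomes and imported, and only Var1 is made inside the organelle. Their mRNAs are well-known targets of the RNA-binding protein Puf3, and in yeast the genes are known for being expressed separately from those of the cytosolic ribosome.

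Transcripts were measured on 11 one-colour Affymetrix arrays. All 11 samples came from a single strain, labelled IMK313, in which RIM15 (YFL033C), which encodes a kinase that takes part in entry into quiescence, was deleted in the laboratory background CEN.PK113-7D. All cultures were anaerobic and limited by glucose, at pH 5.0 and 30 °C, with a dilution rate of 0.025 per h. The first group was a chemostat, in which cells leave with the outflow, with 3 independent cultures. The other groups were retentostat cultures, in which a filter in the outflow keeps the cells so that growth slows towards a standstill, sampled on days 2, 9, 16 and 20 with 2 cultures on each day, called culture 1 and culture 2. Every group carries the deletion, and the wild type was not analysed here, so no comparison shows an effect of RIM15. The series asks how this mutant behaves under severe calorie restriction.

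The RIM15 probe set read 0.4 to 13.9, and 10 of its 11 values did not exceed the floor of 12 used here. Its place in the gene is unknown here, and outside the deleted stretch it would check nothing. The authors' signals had been scaled to 1 trimmed mean (equal within 0.0311%), while the median signal ran from 85.3 to 122. In the actin control (ACT1) the ratio of 3' to 5' probe-set signal was high on 3 arrays, those of culture 2 for days 9 (27.0), 16 (217) and 20 (31.8), against 0.966 to 2.03 for the other 8. The part of this ratio in the results below was not tested beyond the counts given without the 3 arrays. All 67 genes read above the floor on all 11 arrays. Their lowest single signal was 27.9, and their mean signals ran from 46.7 to 1216 with a median of 293. A bulk array cannot tell a change in every cell from a change in a share of the cells, nor a change in mRNA from a change in the total it is scaled to.

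From day 9 on, some of the 67 genes were called higher in the retentostat than in the chemostat, and none was called lower on any day. A gene is called here when its adjusted p from limma is under 0.05 (Benjamini-Hochberg over all 5577 genes, two-sided). In the order of days 2, 9, 16 and 20 the number called higher was 0, 16, 21 and 10. The median log2 difference from the chemostat over the 67 genes was 0.24, 0.54, 0.72 and 0.78. The median over all genes tested also lay above 0 under the deposited scaling, at 0.11, 0.25, 0.35 and 0.36 in the same order. Relative to it the 67 genes were higher by 0.13, 0.29, 0.38 and 0.42. When the arrays were scaled to equal medians instead, these 4 relative values were 0.12, 0.28, 0.37 and 0.41, and with quantile scaling they were 0.10, 0.29, 0.31 and 0.34. The members were chosen with such results known, so these medians carry no test.

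**Figure D1:**
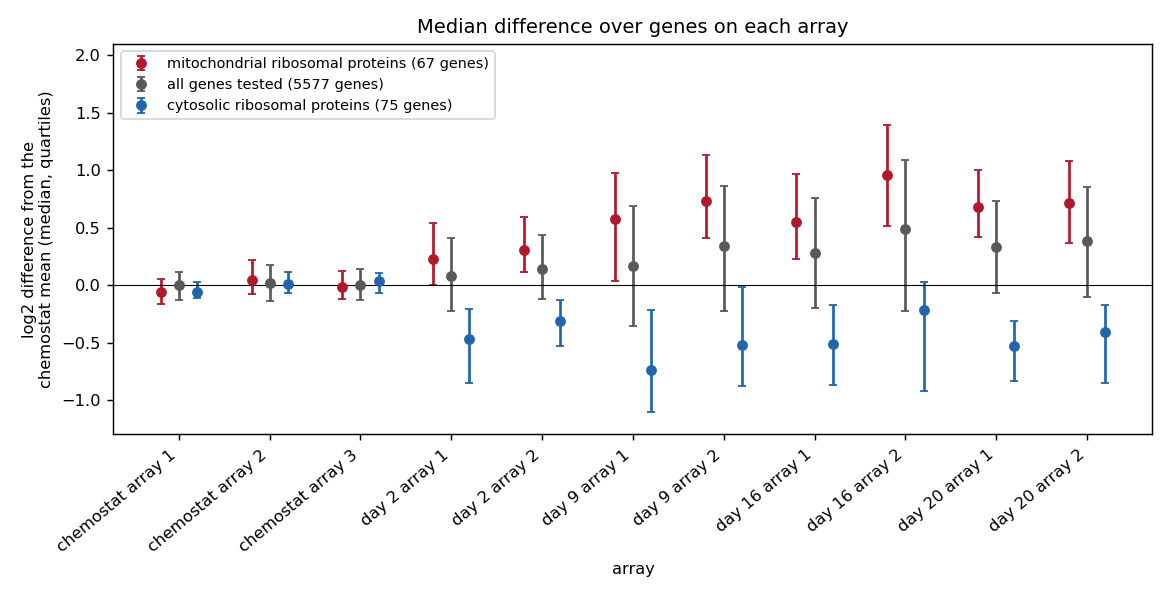
Median log2 difference from the chemostat mean on each array (points) with quartiles over genes (bars), for the 67 mitochondrial ribosomal protein genes, all 5577 genes tested and 75 cytosolic ribosomal protein genes. On the retentostat arrays the mitochondrial medians run from 0.23 to 0.96, above the median of all genes on each array, and the cytosolic medians lie below 0.

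The 8 retentostat arrays gave the same picture one by one. On day 2 the median of the 67 genes was 0.23 in culture 1 and 0.30 in culture 2. On day 9 it was 0.58 and 0.73, on day 16 it was 0.55 and 0.96, and on day 20 it was 0.68 and 0.71. The cultures were thus closest on day 20 and farthest apart on day 16. Of the 67 genes, 65 read above their chemostat mean in culture 1 on day 20 and 64 in culture 2, against 70.8% and 70.1% of all genes. On the earlier days fewer did, with 50 and 55 on day 2, 51 and 58 on day 9, and 58 and 60 on day 16. The chemostat mean was the lowest of the 5 group means for 49 genes. The highest group mean fell on day 9 for 18 genes, on day 16 for 26 and on day 20 for 21. The lowest and highest groups were not counted over all genes, so these counts do not set the 67 apart.

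**Figure D2:**
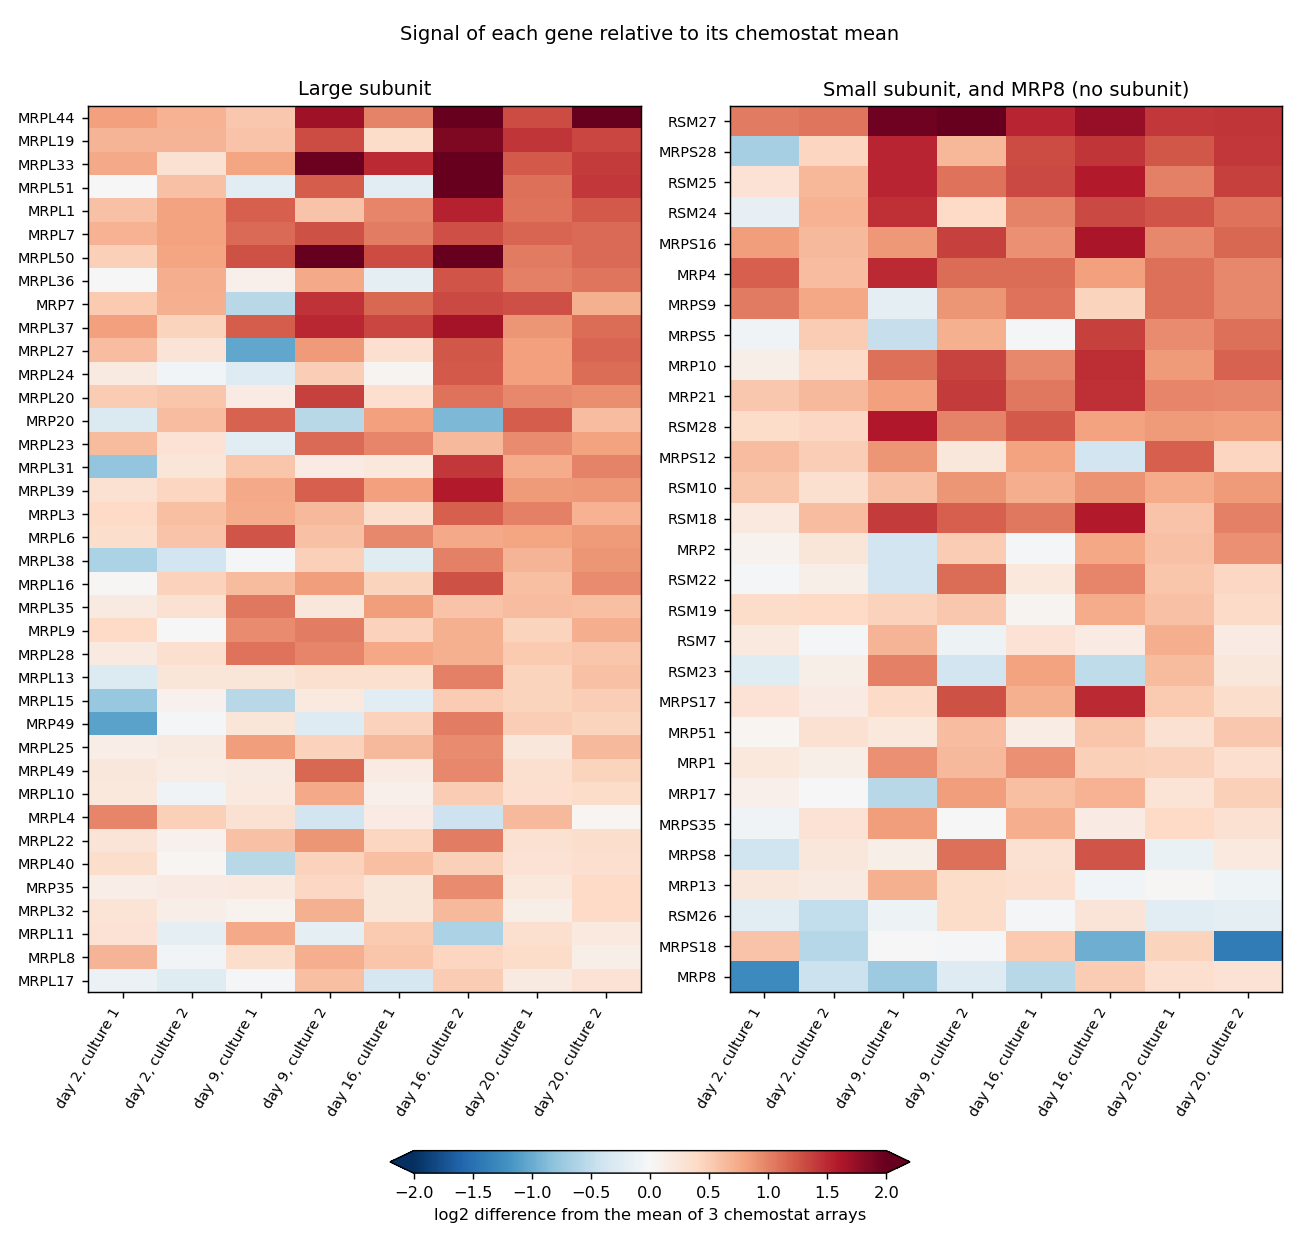
Log2 difference of each gene from its mean on the 3 chemostat arrays, for the 8 retentostat arrays, with the large subunit on the left and the small subunit and MRP8 on the right, ordered by the day 20 value. Red is higher and blue lower, and the scale ends at 2 in either direction. Nearly all rows are red on day 20, and more rows are blue on days 9 and 16. On day 9, 51 of the 67 genes lay above the chemostat mean in culture 1 and 58 in culture 2. On day 16 it was 58 and 60. Some genes, such as MRP8 on day 9 (-0.73 and -0.25), are blue in both cultures.

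After 2 days no gene of the 67 passed the threshold, and over all genes 0.0179% did, which is 1 gene. At an unadjusted p under 0.05 the 67 genes gave 8 (11.9%), against 8.57% of all genes. The log2 difference was above 0 for 55 genes (82.1%, against 60.8% of all genes). In 27 genes (40.3%, against 23.9%) both day 2 arrays lay above all 3 chemostat arrays. RSM27 had the largest day 2 difference of the 67, 1.06 ± 0.20 (SE) with an adjusted p of 0.122. MRP4 and MRPS9, counterparts of the bacterial proteins S2 and S9, each differed by 0.90, with errors of 0.28 and 0.41. The smallest values were those of MRP8 (-0.86), MRP49 (-0.55), MRPL38 (-0.51) and RSM26 (-0.36), none of them called.

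On day 9, 16 genes (23.9%) rose, against 11.4% of all genes called higher. None of the 67 was called lower, against 3.68%. The group values did not overlap for 35 genes (52.2%, against 33.2%), with both day 9 arrays above the chemostat. The 6 largest rises were those of RSM27 (1.98), MRPL50 (1.68), MRPL33 (1.38), MRPL37 (1.36), RSM25 (1.30) and MRP4 (1.30) on the log2 scale. Leaving out chemostat array 1, 2 or 3 gave 7, 8 or 6 called genes, and leaving out the 3 arrays of high ACT1 ratio gave 16. It was 10 with median scaling and 10 with quantile scaling, where 633 and 605 of all 5577 genes were called in either direction, against 842 under the deposited scaling.

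On day 16, 21 genes (31.3%) rose, against 16.6% of all genes, and none was called lower, against 4.32%. The day 16 arrays lay above the chemostat without overlap for 42 genes (62.7%, against 40.6%). The 6 largest rises were MRPL50 (1.85), MRPL44 (1.84), MRPL33 (1.82), RSM27 (1.63), MRPL37 (1.50) and RSM25 (1.45). This count depended on culture 2: without its day 16 array 4 genes were called, and without the day 16 array of culture 1 the count was 26. Without the 3 arrays of high ACT1 ratio it was 11 and the median over the 67 genes was 0.55. Without chemostat array 2 or 3 it was 13 or 12, and without either day 20 array it was 13. Median and quantile scaling gave 11 and 12, with 785 and 716 of all genes called in either direction, against 1167. Leaving out arrays changes the fit of every gene. The counts without them are not set against all genes here, so they show only how stable the count is.

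On day 20, 10 genes (14.9%) rose, against 10.5% of all genes, and none was called lower, against 3.01%. The share called was thus near that of all genes. The share without overlap was larger, with 54 genes (80.6%) above the chemostat on both day 20 arrays, against 49.8%. The 10 called genes were RSM27 (1.42), MRPS28 (1.33), RSM25 (1.19), MRPL1 (1.16), MRPL7 (1.15), MRPS16 (1.06), MRP4 (1.03), MRP10 (1.01), MRPL37 (1.0) and MRP21 (0.97). The count moved widely: it was 2 without any 1 of the chemostat arrays, 1 or 0 without a day 20 array, 18 without either day 9 array and 20 without either day 16 array. It was 6 without the 3 arrays of high ACT1 ratio and 6 with the culture number as a fixed block. Median and quantile scaling left 1 gene each, with 499 and 420 of all genes called in either direction, against 753 under the deposited scaling. A fit on the day 20 and chemostat arrays alone, which sets their spread apart from that of days 9 and 16, gave 34, and it called 1942 of all 5577 genes.

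Between day 2 and day 20 no gene of the 67 passed the threshold, and 0.592% of all genes did. At an unadjusted p under 0.05 there were 7 (10.4%, against 13.6%). The day 20 value was the higher for 63 genes (94%, against 67.8%), and in 51 (76.1%, against 42.1%) the arrays did not overlap. The median difference was 0.38, against 0.22 over all genes. An F test over the 5 sampling points called 11 genes (16.4%), against 11.4% of all genes. They were MRP10, MRP21, MRPL33, MRPL37, MRPL50, MRPL7, MRPS16, RSM18, RSM25, RSM27 and RSM28. The F test counts that follow, from other fits, are not set against all genes, so they show only how stable the count is. The F test count was 1 without any 1 of the chemostat arrays, 4 or 6 without the day 2 array of culture 1 or 2, 3 without either day 20 array, and 17 without the day 16 array of culture 1. It was 2 without the 3 arrays of high ACT1 ratio and 4 with the culture number as a fixed block, and median and quantile scaling gave 2 and 3.

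The medians of both subunits lay close together. Of the 38 genes of the large subunit, 0, 8, 10 and 3 were called higher on days 2, 9, 16 and 20, with median log2 differences of 0.24, 0.52, 0.73 and 0.80. Of the 28 genes of the small subunit it was 0, 8, 11 and 7, with medians of 0.22, 0.58, 0.73 and 0.77. All 38 large subunit genes lay above 0 on day 20, and 25 of the 28 small subunit genes did. Proteins with a bacterial relative and mitochondrial additions had day 20 medians of 0.79 (41 genes, 6 called) and 0.72 (24 genes, 4 called). No difference between these classes was tested.

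Among the large subunit genes, MRPL7 (YDR237W), the counterpart of bacterial L5, gave signals of 199.9, 164.1 and 143.8 in the chemostat. It read 272.2 and 292.1 on day 2, 366.9 and 404.6 on day 9, 340.3 and 408.0 on day 16, and 376.8 and 369.5 on day 20, always culture 1 before culture 2. All 8 retentostat arrays lay above all 3 chemostat arrays, and the cultures stayed close to each other. The rise was 2.30-fold on day 9 (adjusted p 0.00916), 2.22-fold on day 16 and 2.22-fold on day 20 (log2 1.15 ± 0.22, SE, adjusted p 0.0119).

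MRPL37 (YBR268W), a mitochondrial addition of the family mL54, was among the brightest of the 67. It read 554.4, 652.5 and 480.4 in the chemostat, 983.4 and 760.9 on day 2, 1295.1 and 1579.8 on day 9, 1409.1 and 1772.5 on day 16, and 1028.1 and 1207.7 on day 20. The groups did not overlap on any day, and the values of days 9 and 16 stood above those of day 20. The rise was 2.56-fold on day 9 (adjusted p 0.00829), 2.83-fold on day 16 (0.00461) and 2.00-fold on day 20 (0.0298).

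MRPL33 (YMR286W), the counterpart of bacterial L30, and MRPL50 (YNR022C), that of L9, had high day 9 and day 16 values that differed between the cultures. MRPL33 read 271.3, 417.9 and 408.1 in the chemostat, 609.1 and 441.3 on day 2, 618.7 and 1403.8 on day 9, 1011.6 and 1583.0 on day 16, and 836.9 and 944.1 on day 20. MRPL50 read 35.9, 51.5 and 42.4, then 59.5 and 74.2, 103.9 and 182.0, 106.0 and 223.9, and 88.2 and 94.2. In both genes every retentostat array exceeded every chemostat array, and culture 2 was well above culture 1 on days 9 and 16. On day 16 MRPL33 rose by 1.82 ± 0.38 (adjusted p 0.012) and MRPL50 by 1.85 ± 0.36 (0.00907), and neither call held without the day 16 array of culture 2. On day 20 their differences of 1.31 and 1.09 missed the threshold (adjusted p 0.0516 and 0.0745).

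MRPL39 (YML009C), the counterpart of bacterial L33 and with 213 bases of coding length the shortest of the 67, followed the mean of the other genes most closely, with a Pearson r of 0.972 over the 11 arrays. Its chemostat signals were nearly equal, at 746.2, 738.1 and 746.5. It read 916.3 and 1004.9 on day 2, 1261.0 and 1710.1 on day 9, 1318.8 and 2226.9 on day 16, and 1347.0 and 1355.5 on day 20. No retentostat array overlapped the chemostat. The gene rose on day 9 (0.98 ± 0.26) and day 16 (2.30-fold), and on day 20 it was 0.86 higher with an adjusted p of 0.058.

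MRPL1 (YDR116C), the counterpart of bacterial L1, which forms a mobile stalk of the ribosome, read 63.7, 81.6 and 76.1 in the chemostat, 110.7 and 128.1 on day 2, 167.6 and 109.3 on day 9, 145.0 and 214.2 on day 16, and 156.4 and 172.2 on day 20. It rose by 1.26 on day 16 and by 1.16 ± 0.27 on day 20 (adjusted p 0.025). MRPL44 (YMR225C, mL53) had the largest day 20 difference of the 67, 1.80 ± 0.55, and its adjusted p was 0.0596. Its chemostat values of 105.6, 138.3 and 210.3 and its day 20 values of 360.6 and 711.3 were both widely spread. A second, dimmer probe set of MRPL44 gave a day 20 difference of 0.94. MRPL19 (YNL185C), the counterpart of L11, differed by 1.38 ± 0.41 on day 20 with an adjusted p of 0.0524, and all 8 retentostat values, 149.2 to 421.2, exceeded its chemostat values of 103.4, 135.5 and 108.7.

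Among the genes for proteins at the exit of the ribosomal tunnel, where the new chain meets the inner membrane, 3 were chosen by role. They are MRP20 (L23), MRPL4 (L29) and MRPL22 (L22), and none of the 3 passed the threshold on any day. MRP20 (YDR405W) read 132.4, 108.0 and 120.9 in the chemostat, 98.6 and 183.9 on day 2, 271.1 and 81.7 on day 9, 212.8 and 64.6 on day 16, and 278.9 and 183.9 on day 20. On days 9 and 16 its culture 1 stood above the chemostat and its culture 2 below it. MRPL4 (YLR439W) read 270.2, 266.4 and 245.4 in the chemostat and was highest on day 2, at 514.9 and 362.6. On days 9 and 16 it read 320.2 and 290.9 in culture 1, and 200.3 and 194.5 in culture 2. MRPL22 (YNL177C) differed by 0.33 ± 0.31 on day 20. MRPL32 (YCR003W), which encodes a protein that the m-AAA protease of the inner membrane must trim before it can be assembled, differed by 0.26 ± 0.27. MRPL36 (YBR122C), the counterpart of L31, read 189.7, 201.1 and 158.0 in the chemostat and 366.9 and 380.3 on day 20, a difference of 1.04 ± 0.42 with an adjusted p of 0.126.

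In the small subunit RSM27 (YGR215W), a mitochondrial addition of the family mS33, had the largest rise on days 9 and 20 among the called genes of the 67. It read 59.7, 68.2 and 62.1 in the chemostat, 130.6 and 133.5 on day 2, 243.9 and 253.9 on day 9, 181.8 and 211.9 on day 16, and 168.3 and 169.7 on day 20. The cultures nearly coincided, every retentostat array was above the chemostat, and the signal was highest on day 9. The fold over the chemostat was 3.94 on day 9 (adjusted p 0.0011), 3.10 on day 16 (0.00147) and 2.67 on day 20 (0.00336). Its day 20 call was the only one of the 10 present under both other scalings, and leaving out the culture 2 array of day 20 ended it (adjusted p 0.0527).

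RSM25 (YIL093C), another mitochondrial addition (mS23), read 61.2, 60.8 and 76.0 in the chemostat, 80.4 and 104.2 on day 2, 188.1 and 139.3 on day 9, 163.2 and 197.6 on day 16, and 131.6 and 169.5 on day 20. All retentostat values exceeded the chemostat, those of day 2 by little. The rise was 2.47-fold on day 9, 2.74-fold on day 16 and 2.28-fold on day 20 (adjusted p 0.011, 0.00589 and 0.0182).

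MRPS16 (YPL013C), the counterpart of bacterial S16, read 517.6, 540.6 and 485.4 in the chemostat. It read 921.9 and 804.0 on day 2, 934.9 and 1325.3 on day 9, 965.5 and 1601.6 on day 16, and 1003.0 and 1138.9 on day 20. The groups were apart on every day, with culture 2 the higher on days 9 and 16. On day 20 it was 2.08-fold higher (log2 1.06 ± 0.27, adjusted p 0.0346). MRP21 (YBL090W, the counterpart of S21) and MRP4 (YHL004W, that of S2) were likewise above the chemostat on all 8 retentostat arrays. MRP21 read 66.0, 79.8 and 54.0 in the chemostat and 129.3 and 128.0 on day 20. MRP4 read 206.7, 144.3 and 137.2 in the chemostat and 344.8 and 311.2 on day 20.

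MRP10 (YDL045W-A, mS37), whose protein carries a twin cysteine motif that is oxidised on its way into the mitochondrion, read 355.9, 451.1 and 368.8 in the chemostat and 424.1 and 509.9 on day 2. It read 832.7 and 992.9 on day 9, 762.6 and 1083.7 on day 16, and 703.9 and 881.3 on day 20. Day 2 overlapped the chemostat and the later days did not. It rose by 1.22 ± 0.25 on day 9, 1.22 on day 16 and 1.01 on day 20 (adjusted p 0.0299). MRPS28 (YDR337W), the counterpart of S15, also overlapped the chemostat on day 2, at 103.2 and 221.3 against 194.6, 122.3 and 183.8, and read 388.3 and 435.1 on day 20 (1.33 ± 0.38, adjusted p 0.0483).

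**Figure D3:**
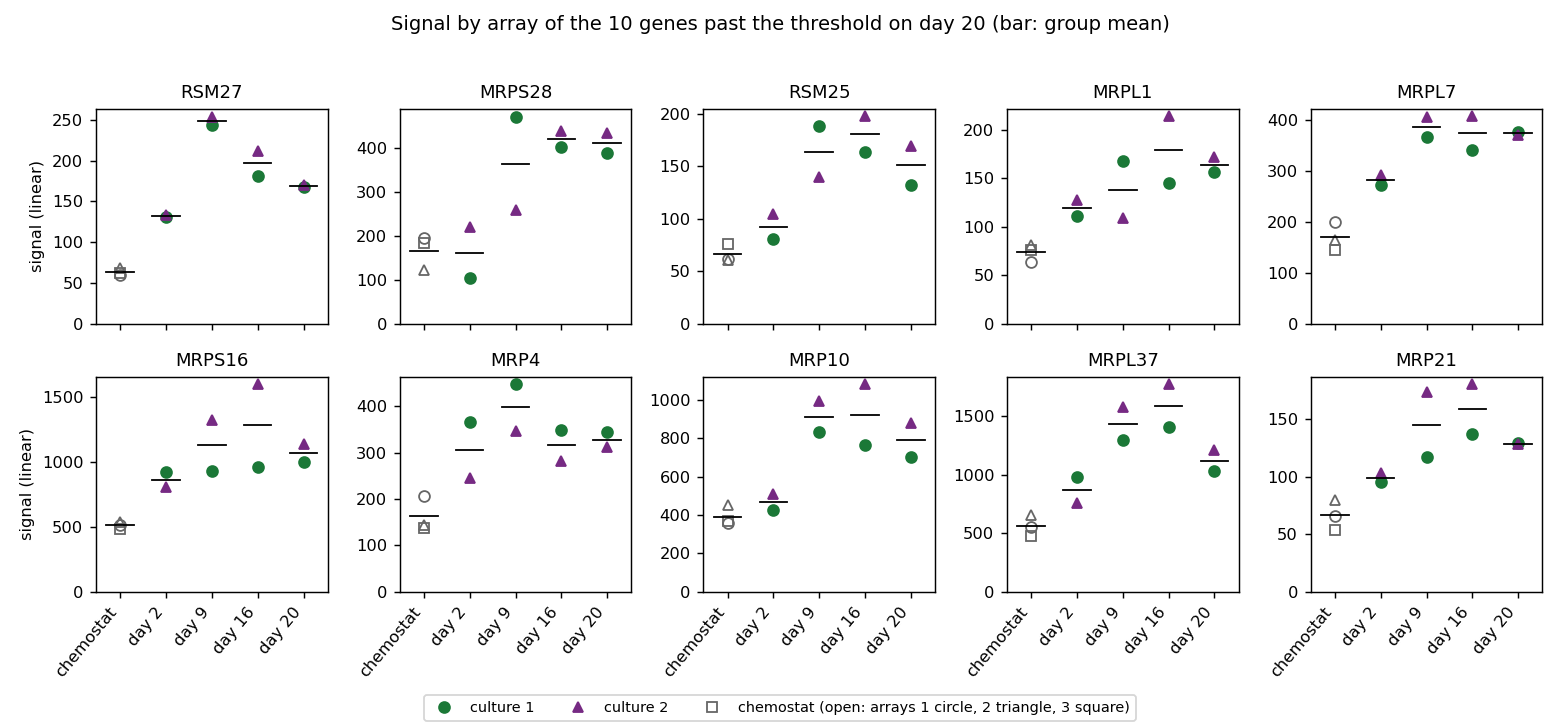
Signal on each array (linear scale) of the 10 genes past the threshold on day 20, with group means as bars and the cultures as marked in the legend. In each panel both day 20 points lie above the 3 chemostat points, and in RSM27 the day 9 points are the highest.

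The small subunit genes MRP51, MRP1 and MRP17, chosen here for genetic ties to mitochondrial mRNAs or an activator, did not pass the threshold on any day. MRP51 (YPL118W), which interacts genetically with the COX2 and COX3 mRNAs, read 153.1, 177.8 and 118.4 in the chemostat and 182.0 and 214.6 on day 20, a difference of 0.42 ± 0.27. MRP1 (YDR347W) and MRP17 (YKL003C), which interact genetically with the COX3 activator PET122, differed by 0.40 ± 0.24 and 0.37 ± 0.35 on day 20. MRP1 had its largest difference on day 9, 0.78 ± 0.24, with an adjusted p of 0.0569. MRPS12 (YNR036C), the counterpart of S12, a protein of the decoding site, read 631.6, 603.7 and 626.8 in the chemostat. On day 16 it read 1082.0 in culture 1 and 474.0 in culture 2, on either side of the chemostat.

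The 3 ribosomal genes that lay below 0 on day 20 were all in the small subunit, and none was called. MRPS18 (YNL306W), the counterpart of S11, read 129.9, 189.4 and 177.2 in the chemostat and 222.4 in culture 1 but 62.1 in culture 2 on day 20. The mean difference of -0.48 ± 0.59 thus joins a value above the chemostat to one below it. RSM26 (YJR101W, mS42) read 151.3, 219.6 and 122.4 in the chemostat and 138.5 and 141.1 on day 20, a difference of -0.19 ± 0.29. MRP13 (YGR084C, mS44) read 49.0, 46.5 and 44.6 in the chemostat and 47.5 and 43.8 on day 20 (-0.03 ± 0.22). MRPS8 (YMR158W, the counterpart of S8) was at 0.03 ± 0.39.

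MRP8 read 716.9, 743.7 and 871.1 in the chemostat, 319.2 and 573.9 on day 2, and 976.8 and 950.9 on day 20. It lay below the chemostat on day 2 and above it on day 20, and neither difference was called. RSM22 read 35.1, 42.6 and 38.5 in the chemostat and 56.5 and 51.3 on day 20, and was not called either. Neither gene was called in any comparison, so the counts of called genes are the same with MRP8 and RSM22 left out.

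The cultures differed more on days 9 and 16 than on days 2 and 20, among the 67 genes and among all genes. On day 20 the signals of culture 1 and culture 2 differed by more than 1 on the log2 scale in 1 gene (1.49%, against 4.29% of all genes), which was MRPS18. On day 9 this held for 15 genes, of which 12 were higher in culture 2 and 3 in culture 1 (22.4%, against 24.1%). On day 16 it also held for 15, with 10 higher in culture 2 and 5 in culture 1 (22.4%, against 26.8%). On day 2 it held for 4 (5.97%, against 7.1%). The culture 2 arrays of days 9, 16 and 20 are those of high ACT1 ratio (27.0, 217 and 31.8), and its part in the culture differences was not tested. The largest difference was that of MRPL51 on day 16, with 214.6 in culture 1 and 1010.5 in culture 2. On day 9 it was that of MRP7, with 139.3 and 555.1. MRP20 went the other way on both days, by -1.73 and -1.72.

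**Figure D4:**
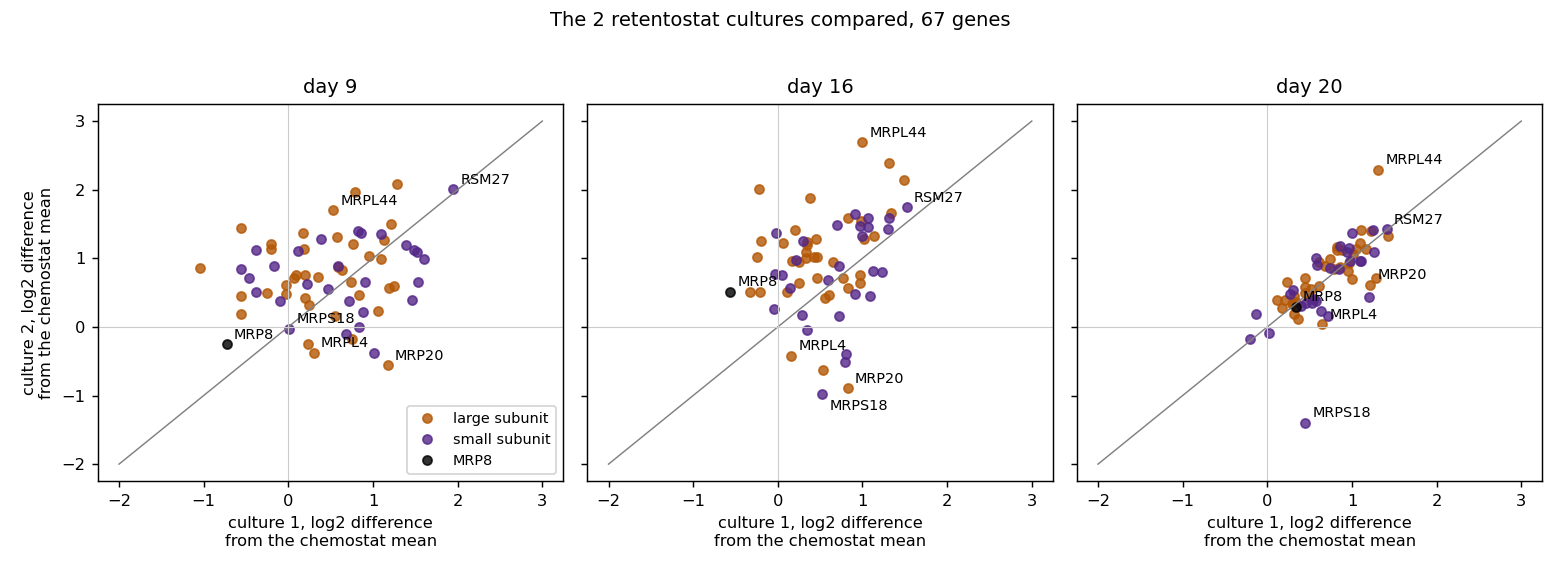
Log2 difference from the chemostat mean in culture 1 (horizontal) and culture 2 (vertical) for the 67 genes on days 9, 16 and 20, with the line of equal values. Most points lie close to the line on day 20, and are scattered around it on days 9 and 16. On day 20 MRPS18 is the farthest from the line, and others such as MRPL44 (culture 2 higher by 0.98) also stand off it. Both axes share the same chemostat mean.

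The culture difference was also set against gene length. On day 16 culture 2 exceeded culture 1 by a median of 0.71 (log2) in the 23 genes with the shortest coding length (213 to 477 bases), by 0.35 in the middle 22 (486 to 810) and by 0.15 in the longest 22 (837 to 1887). On day 9 the medians were 0.44, 0.43 and -0.17, and on day 20 they were 0.20, 0.04 and -0.06. The Pearson r of the culture difference with coding length across the 67 genes was -0.213, -0.323 and -0.291 for days 9, 16 and 20, while across all genes it was 0.0259, -0.013 and -0.0532. On day 2 it was -0.00279 among the 67 and 0.0189 among all genes. In culture 1 alone, whose ACT1 ratios were low, the medians over the chemostat from short to long were 0.58, 0.29 and 0.72 on day 9, 0.65, 0.46 and 0.76 on day 16, and 0.82, 0.57 and 0.64 on day 20, with no order by length. Culture 2 alone was not read by length. From short to long, 9, 4 and 3 genes were called on day 9, 11, 5 and 5 on day 16, and 4, 2 and 4 on day 20. Calls by length were not counted over all genes, so these counts do not set the 67 apart. Genes are not independent replicates, and the part of length in the calls was not tested.

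Across the 11 arrays most of the genes moved with the mean of the others. The Pearson r of a gene's log2 signal with the mean of the other 66 had a median of 0.725 and was over 0.7 for 37 genes. These genes share arrays, scaling and groups. The lowest values were those of MRPS18 (-0.353) and MRPL4 (-0.267). MRPL1 lies next to MRX14, and MRPS12 next to RSM19, in the gene table, so most members are not neighbours in the genome, being spread over 14 chromosomes. The probe set of MRPL15 is of a type that can match several transcripts, so its values are uncertain.

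The genes of the cytosolic ribosome gave values on the other side of the chemostat. Of 75 cytosolic ribosomal protein genes with a probe set of their own, 0, 10, 12 and 9 were called lower on days 2, 9, 16 and 20, and none was called higher. Of all genes 3.68%, 4.32% and 3.01% were called lower on the last 3 of these days. Their median log2 differences were -0.45, -0.58, -0.38 and -0.45, and the median was below 0 on all 8 retentostat arrays. Leaving out 1 array at a time gave 2 to 25 called on day 9, 4 to 20 on day 16 and 0 to 14 on day 20. Median scaling gave 21, 23 and 23 on the 3 days, and quantile scaling 7, 5 and 5. Over all genes median scaling called 633, 785 and 499 in either direction, and quantile scaling 605, 716 and 420. The shares of all genes called lower under these scalings, or with an array left out, are not given here. These counts thus show only how stable the main ones are. Many of these genes come in near-identical pairs, whose probe sets can share signal. Both groups of genes were compared with the same chemostat arrays, so the values stand side by side and no difference between them was tested.

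Beyond the 67 names, other parts of the mitochondrial translation system were read from lists of genes. The counts of these lists stand against the 11.4%, 16.6% and 10.5% of all genes called higher on days 9, 16 and 20. Those of the aminoacyl-tRNA synthetases, the translational activators, protein import, and Puf3 with the Hap regulators lie near or below these shares. Those of membrane insertion and of transcription and RNA turnover rest on 1 or 2 genes. Of 15 mitochondrial ribosomal proteins with other names, 5, 8 and 2 were called higher on days 9, 16 and 20, and none lower. RML2, the counterpart of L2, read 220.0, 208.5 and 213.0 in the chemostat and 362.1 and 358.1 on day 20 (0.75, adjusted p 0.0353). FYV4 had the largest day 9 rise of this list (1.54), and IMG2, MHR1 and RTC6 also rose on that day by 1.22, 1.0 and 0.77. VAR1, the gene in the mitochondrial genome, was at or under the floor on 10 of 11 arrays, so its level is not measured. With these 15 included, the count over all was 21, 29 and 12.

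Among 14 mitochondrial translation factors 3, 4 and 2 were called higher on days 9, 16 and 20. GTF1, a subunit of the enzyme that makes the glutamine-charged tRNA, read 93.4, 92.1 and 100.4 in the chemostat, 140.6 and 185.5 on day 2, 433.6 and 306.1 on day 9, 327.7 and 358.2 on day 16, and 283.1 and 350.2 on day 20. All retentostat values were higher, and the rise was 1.94 on day 9 and 1.73 on day 20 (adjusted p 0.00197 and 0.00336), the latter call being lost without the day 20 array of culture 2 (0.0597). RRF1, the ribosome recycling factor, rose by 1.35, 1.29 and 1.44 on the 3 days. The release factor MRF1 rose on days 9 and 16, and MTG1, a GTPase of large subunit assembly, rose on day 16.

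Of 9 genes for ribosome assembly and rRNA modification 2, 3 and 2 were called higher. MRH4, an RNA helicase of large subunit assembly, read 50.9, 46.1 and 60.5 in the chemostat and 155.5 and 181.3 on day 20 (1.69, adjusted p 0.00501). MRM2, a methyltransferase of the large rRNA, rose by 1.19, 1.35 and 1.05, and RMD9 rose on day 16 by 1.05. Of 13 mitochondrial aminoacyl-tRNA synthetases 1, 2 and 1 were called, the tryptophan enzyme MSW1 on all 3 days (1.49, 1.41 and 1.27) and the methionine enzyme MSM1 on day 16. Of 18 translational activators of single mRNAs 2, 3 and 2 were called. CBP1, needed for the COB mRNA, rose on all 3 days (1.44, 1.47 and 1.42). MSS51, the activator of COX1, rose on days 16 and 20 (1.04 and 1.33), PET54, of COX3, on day 16 and AEP1, of ATP9, on day 9.

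Of 7 genes for membrane insertion 1, 2 and 1 were called. They were MSS2 on all 3 days (1.29, 1.23 and 1.03) and COX18 on day 16, both needed for the export of the Cox2 tail. Of 6 genes for mitochondrial transcription and RNA turnover only MTF2 was called, by 1.12, 1.06 and 0.85. Of 18 genes for protein import 2, 1 and 1 were called higher, the receptor TOM20 on all 3 days and the processing peptidase subunit MAS2 on day 9. The import pore gene TOM40 fell on day 16 by 0.99, with 598.1, 691.7 and 664.7 in the chemostat and 436.4 and 245.7 on that day. Of 10 genes of Puf3 and the Hap regulators none was called on days 9 and 16, and HAP5 was called on day 20 (0.99, adjusted p 0.0387). The lists are small, so their counts move by a few genes with each setting. With median scaling the day 16 counts were 2 of 15 other ribosomal proteins, 1 of 14 translation factors, 2 of 9 assembly genes and 0 of 18 activators. With it the only day 20 calls left among the genes named from these lists were those of GTF1 and MRH4, so that those of RML2, MHR1, RRF1, MRM2, MSW1, CBP1, MSS51, MSS2, MTF2, TOM20 and HAP5 were lost.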

How the data were processed

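The deposited values are linear probe-set intensities that the authors made with GCOS 1.2, per the submitters' processing notes. Their background and scaling settings are unknown here. Every value column belonged to a sample. The arrays hold 9335 probe sets, of which 6504 carry the name of 1 gene, 328 several names and 2443 none, besides 60 controls. Each of 5656 genes was read from its brightest probe set by mean log2 signal. Leaving out 79 genes that never exceeded the floor gave 5577. Signals under 12 were set to 12 and taken to log2. Names, neighbours and coding lengths come from a RefSeq gene table, which paired the family names for 65 of the 67 genes. No build is stated for the probe sets, so no coordinates are given.

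The comparisons used lmFit and eBayes of limma 3.58.1 (R 4.3.3) on all 11 arrays with 1 mean per group, which left 6 residual degrees of freedom beside a prior of 3.52. The fit was run on simulated arrays with independent noise, in which a changed gene had the same change in all retentostat groups. These arrays share no cultures and have an equal spread on all days. The run thus does not cover repeated sampling or unequal spread. Adjusted p-values are limma's, and errors are moderated standard errors. The number of arrays limits the precision. Retentostat arrays with 1 replicate number share a culture code in the labels, so 2 cultures were sampled repeatedly. Their deviations from the day means correlated between days at 0.227 to 0.690 over all genes. The main fit treats the arrays as independent, and alternatives use the culture or the replicate number as a block.

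The members, the gene lists and the rule for named genes were chosen with earlier results of these data known. The rule takes members past the threshold (the 6 largest where over 12), the 4 largest and smallest differences on days 2 and 20, the 3 brightest and dimmest and 12 chosen by role. From the lists it takes called genes, up to 6 in a comparison. RSM18, RSM28, MRPL51 and MRP7 were named after their values were seen. Alternatives were other scalings, floors, filters and priors, blocks, and leaving out arrays.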

Additional observations from a re-analysis of the deposited data

How the results depend on the processing

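Across 11 results and 25 alternatives, 274 values were recomputed, of which 223 stayed close to the reported one, 51 moved and none changed direction. Only the medians could change direction, since a count cannot. The 223 include counts of 0 that stayed 0. They also include the counts without MRP8 and RSM22, which could not change because neither gene was called. With median scaling the counts of called genes were 10, 11 and 1 on days 9, 16 and 20 and 2 in the F test, and the medians were 0.30, 0.38 and 0.38, with 0.10 for day 20 against day 2. With quantile scaling the counts were 10, 12, 1 and 3, and the medians 0.38, 0.44, 0.44 and 0.20. The group arrays alone gave 34 on day 20. The counts of this section are given without those of all genes in the same fits, so they show only how stable they are. Leaving out the 3 arrays with a high ACT1 ratio gave counts of 11, 6 and 2 on days 16 and 20 and in the F test, and a day 16 median of 0.55. In that fit a day with 1 array is assumed to vary like the other groups. With the replicate number as a fixed block (the culture number above) the counts were 12, 16 and 6 on days 9, 16 and 20 and 4 in the F test. This block also pairs chemostat arrays 1 and 2 with retentostat cultures 1 and 2, though the chemostats were independent cultures. Chemostat array 3 alone has the number 3, so it adds nothing to these differences. The counts thus do not show the pairing of the retentostat cultures alone. With culture as a random block (correlation 0.247) the counts were 16, 21, 11 and 12. Leaving out 1 array at a time gave counts of 6 to 20 on day 9, 4 to 26 on day 16, 0 to 20 on day 20 and 1 to 17 in the F test, and 0 throughout on day 2 and for day 20 against day 2. The medians then ran from 0.20 to 0.30, 0.54 to 0.73, 0.55 to 0.96 and 0.68 to 0.78 on days 2, 9, 16 and 20, and from 0.35 to 0.43 for day 20 against day 2. Of 35 calls of single named members, 7 held under all alternatives run: RSM27, RSM25 and MRPL37 on days 9 and 16, and MRPL7 on day 9. No called value changed sign. With 1 strain and 2 or 3 arrays per group, cultures 1 and 2 are the only retentostat replicates.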

Other observations

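The genes outside the 67 whose log2 signal followed the mean of the 67 most closely over the 11 arrays, among 4780 genes with a mean signal of at least 50, were VTC3 (Pearson r 0.985), YLL056C (0.984), YEL1 (0.983), BDF2 (0.975) and MLS1 (0.974). These points share arrays, scaling and groups, and the genes were chosen for this likeness, so the values are a description. VTC3, a subunit of the vacuolar polyphosphate polymerase complex, read 86.3, 108.8 and 83.4 in the chemostat, 132.9 and 143.5 on day 2, 179.4 and 216.7 on day 9, 189.6 and 281.2 on day 16, and 229.7 and 257 on day 20. All its retentostat values lay above the chemostat. MLS1, the malate synthase of the glyoxylate cycle, had the largest difference of the 5 on day 20, 2.97 on the log2 scale, with signals of 26.9, 28 and 26.4 in the chemostat and 181.4 and 247.6 on day 20.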
